A study of Homo sapiens with 5 samples.

Results

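Translation initiation factors and the enzymes that modify eIF5A were followed in TF-1, a human erythroleukaemia cell line that is established in culture, depends on growth factor and serves as a model of erythroid progenitors. The members were all probe sets whose only gene symbol in the platform's annotation starts with EIF and a digit, the EIF2AK kinases left out, plus those of DOHH, DHPS and DENR: 90 probe sets of 43 genes, among 22283 probe sets on the array and 11963 genes with a probe set of their own. Another 8 probe sets carry an EIF symbol beside other symbols and were not used. RNA was read on 5 Affymetrix arrays, 1 for each group, all from cells kept overnight without growth factor and given a cytokine for 6 h. Cells carrying MSCV-DbSCL, a retrovirus for a form of the basic helix-loop-helix factor SCL that is unable to bind DNA, received Steel factor (SF, the ligand of c-Kit, 20 ng/mL) or erythropoietin (Epo, with no dose in the labels). Cells carrying the empty vector MSCV-GFP received SF at 20 ng/mL, Epo, or GM-CSF at 5 ng/mL, the factor in which the line is kept. The labels do not say whether the transduced cells were a clone or a mixed population, and none of the 5 groups was left without cytokine. With 1 array a group there was no replicate and no test; every difference below is between single arrays on the log2 scale. In RNA from whole cultures, fewer cells with a transcript and less of it per cell cannot be told apart.

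Initiation begins when eIF2, loaded with GTP, brings the initiator transfer RNA to the small ribosomal subunit, on which eIF1, eIF1A, eIF3 and eIF5 assemble; eIF2B recharges eIF2 with GTP. The eIF4 factors recognise the cap of the messenger RNA and unwind its leader, and eIF5B joins the large subunit. EIF5A, despite its name, acts mainly in elongation and termination, and it works only after one of its lysines has been turned into hypusine, first by DHPS (deoxyhypusine synthase) and then by DOHH (deoxyhypusine hydroxylase). DENR pairs with MCTS1 to recycle small subunits and to allow reinitiation. In erythroid cells a shortage of haem slows initiation through phosphorylation of eIF2, which keeps globin synthesis in step with haem.

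Signals are deposited log2 values, 1 per probe set. Values below a floor of 4.45, the 40th percentile of all signals other than array controls, were set to the floor, and a probe set entered a comparison when 1 of its 2 arrays was above it. Of the 90 member probe sets 76 were above the floor on all arrays, 6 on some and 8 on none. Those 8 included the only probe set of EIF5A2, so 42 of 43 genes had a usable signal. A member was counted at a 2-fold difference, or a log2 difference of 1, and the spread of a single difference, estimated without replicates from the disagreement between the DbSCL differences under SF and Epo, lay between 0.13 and 0.25 according to signal. Erythroid progenitor markers were present: all 12 of those on the array, of 16 listed, lay above the floor on all 5 arrays. Epithelial markers were below it throughout (0 of 4 above). Of the 5 T cell markers 4 lay above it on each array (5 on vector GM-CSF), of the 3 B cell markers on the array 1 (3 on vector GM-CSF), of the 4 monocyte markers 2, with CD14 and CSF1R below the floor on all arrays, and of the 4 fibroblast markers 3; summed linear signals were 8464 to 10468 for the erythroid list, 217 to 255 for T cells, 85.8 to 123 for B cells, 129 to 164 for monocytes and 199 to 237 for fibroblasts. Array controls were uneven. The probe sets for 28S ribosomal RNA averaged 7.07 on DbSCL SF, 6.55 on vector SF, 6.69 on DbSCL Epo, 5.80 on vector Epo and 7.82 on vector GM-CSF, and the hybridization controls, added in equal amount by design, read 10.57, 10.02, 9.78, 9.58 and 10.53 in the same order. TAL1, the gene of SCL, read 8.29 on DbSCL SF against 8.31 on vector SF and 8.31 on DbSCL Epo against 8.59 on vector Epo in its brightest probe set; where that probe set lies relative to the retroviral insert was not determined, so it does not check the labels.

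Because the study turns on whether SCL can bind DNA, the 250 bases before the annotated start are shown for 4 members that differed 2-fold and have a single start in the table, DOHH and EIF5B (higher with DbSCL under Epo), DENR (lower with DbSCL under SF) and EIF3M (higher under Epo and SF than under GM-CSF). Sequences are from RefSeq on GRCh38.p14 and run 5′ to 3′ along the gene; capitals mark CANNTG, the E-box bound by basic helix-loop-helix factors, and GATA, the core bound by GATA factors, each searched on both strands. The windows are chr19:3500675-3500924 (minus strand) for DOHH, chr12:122752574-122752823 (plus) for DENR, chr2:99337139-99337388 (plus) for EIF5B and chr11:32583581-32583830 (plus) for EIF3M.
DOHH: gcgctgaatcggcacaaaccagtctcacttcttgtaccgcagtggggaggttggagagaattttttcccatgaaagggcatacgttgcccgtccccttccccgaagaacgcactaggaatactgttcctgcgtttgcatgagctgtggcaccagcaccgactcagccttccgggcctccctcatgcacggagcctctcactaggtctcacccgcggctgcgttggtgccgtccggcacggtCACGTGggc
DENR: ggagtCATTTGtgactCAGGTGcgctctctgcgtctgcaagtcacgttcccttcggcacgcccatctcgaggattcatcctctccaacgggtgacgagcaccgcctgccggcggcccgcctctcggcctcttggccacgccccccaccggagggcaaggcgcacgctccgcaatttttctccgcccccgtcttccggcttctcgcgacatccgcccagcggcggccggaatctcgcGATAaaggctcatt
EIF5B: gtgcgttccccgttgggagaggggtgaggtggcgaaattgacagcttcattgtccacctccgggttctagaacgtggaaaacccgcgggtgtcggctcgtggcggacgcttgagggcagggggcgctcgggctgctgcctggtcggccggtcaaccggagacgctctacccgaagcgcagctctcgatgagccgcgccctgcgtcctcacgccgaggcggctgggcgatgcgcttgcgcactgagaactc
EIF3M: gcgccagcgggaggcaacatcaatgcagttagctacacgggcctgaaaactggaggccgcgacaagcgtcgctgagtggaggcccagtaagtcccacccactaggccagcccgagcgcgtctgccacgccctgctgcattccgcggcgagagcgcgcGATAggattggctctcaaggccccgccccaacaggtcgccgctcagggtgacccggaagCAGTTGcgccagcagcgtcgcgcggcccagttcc

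DOHH held 1 CANNTG, which reads CACGTG and ends 4 bases before the start, and no GATA. DENR held 2 CANNTG, reading CATTTG and CAGGTG, and 1 GATA. EIF3M held 1 of each, and EIF5B held neither. EIF5A has 6 overlapping or neighbouring start windows in the table, 3 with CANNTG, 3 with GATA and 2 with both, and none is printed. Over the 48 windows of the 36 member genes that matched, CANNTG was found in 52.1% (61.8% of all 35116 windows), GATA in 41.7% (45.6%), and both in 12 of the 48 (30.2% of all). CACGTG, a form of CANNTG that is the preferred site of MYC and MAX and of the USF factors, was found in 22.9% of the member windows and in 6.34% of all; the 11 windows with it belong to 11 genes, among them EIF4E, EIF4A3, EIF4B, EIF4G1, EIF4H, EIF2B3 and DOHH. The background windows were not matched to the member windows on base composition. Windows of neighbouring starts overlap, and a match is a description of letters only.

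EIF5A gave the lowest difference of all members under Epo. Its brightest probe set (213753_x_at) read 7.94 on DbSCL SF, 7.29 on vector SF, 7.31 on DbSCL Epo, 7.01 on vector Epo and 8.22 on vector GM-CSF. The second (201122_x_at) read 7.70, 7.04, 7.30, 6.86 and 7.85 in the same order. In both, the vector GM-CSF array was highest and the vector Epo array lowest, and the DbSCL array lay above the vector array of the same cytokine. The third (201123_s_at) read 5.72, 6.30, 5.82, 5.74 and 5.82, with vector SF highest and the other 4 arrays between 5.72 and 5.82. Epo minus GM-CSF was thus −1.21 (2.32-fold lower), −0.99 and −0.09 for the 3 probe sets, and SF minus GM-CSF was −0.93, −0.81 and 0.47, with estimated spreads of 0.22, 0.22 and 0.19. DbSCL minus vector was 0.65, 0.66 and −0.58 under SF and 0.30, 0.44 and 0.09 under Epo. The probe sets of this gene therefore do not give 1 answer; the IDs of the first 2 end in _x_at, the array maker's mark for probes that may match other transcripts, and EIF5A has near-identical copies in the genome. The order of the arrays in the first probe set (vector GM-CSF, DbSCL SF, DbSCL Epo, vector SF, vector Epo, from high to low) is also that of the 28S signal; its part in the result was not tested.

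DOHH, the second enzyme of hypusine synthesis, was lower under Epo and SF than under GM-CSF too. Its probe set 208141_s_at read 6.58 on DbSCL SF, 6.08 on vector SF, 6.78 on DbSCL Epo, 5.71 on vector Epo and 6.84 on vector GM-CSF. The vector Epo array was lowest, and both DbSCL arrays lay above the vector array of the same cytokine. Differences were −1.12 for Epo minus GM-CSF (2.18-fold lower), −0.76 for SF minus GM-CSF, 0.50 for DbSCL minus vector under SF and 1.07 for DbSCL minus vector under Epo (2.10-fold higher), with a spread of 0.21. For the 28S signal the same differences were −2.02, −1.28, 0.53 and 0.89. Its part in the DOHH result was not tested. A second probe set (210030_at) read 4.79, 4.09, 4.20, 4.09 and 4.50 in the same array order and was above the floor on DbSCL SF and vector GM-CSF only, and the last (213949_s_at) read 4.12, 3.82, 3.96, 3.87 and 4.16, below it on all arrays, so the 2-fold values rest on 1 probe set. DHPS, which acts before DOHH on the same lysine, showed the other direction against GM-CSF. Its brightest probe set read 7.58 on DbSCL SF, 7.47 on vector SF, 7.53 on DbSCL Epo, 7.47 on vector Epo and 7.02 on vector GM-CSF, the last being the lowest. The others read 6.83, 6.83, 6.87, 6.83 and 6.56 (211558_s_at) and 6.54, 6.35, 6.35, 6.35 and 5.62 (202802_at), again lowest on vector GM-CSF. All 3 DHPS probe sets had higher signals with Epo than with GM-CSF (0.27 to 0.73) and, by the same amounts, with SF, because each holds the same value on the vector SF and vector Epo arrays. With DbSCL they differed by 0.19 or less under SF and 0.06 or less under Epo.

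**Figure D1:**
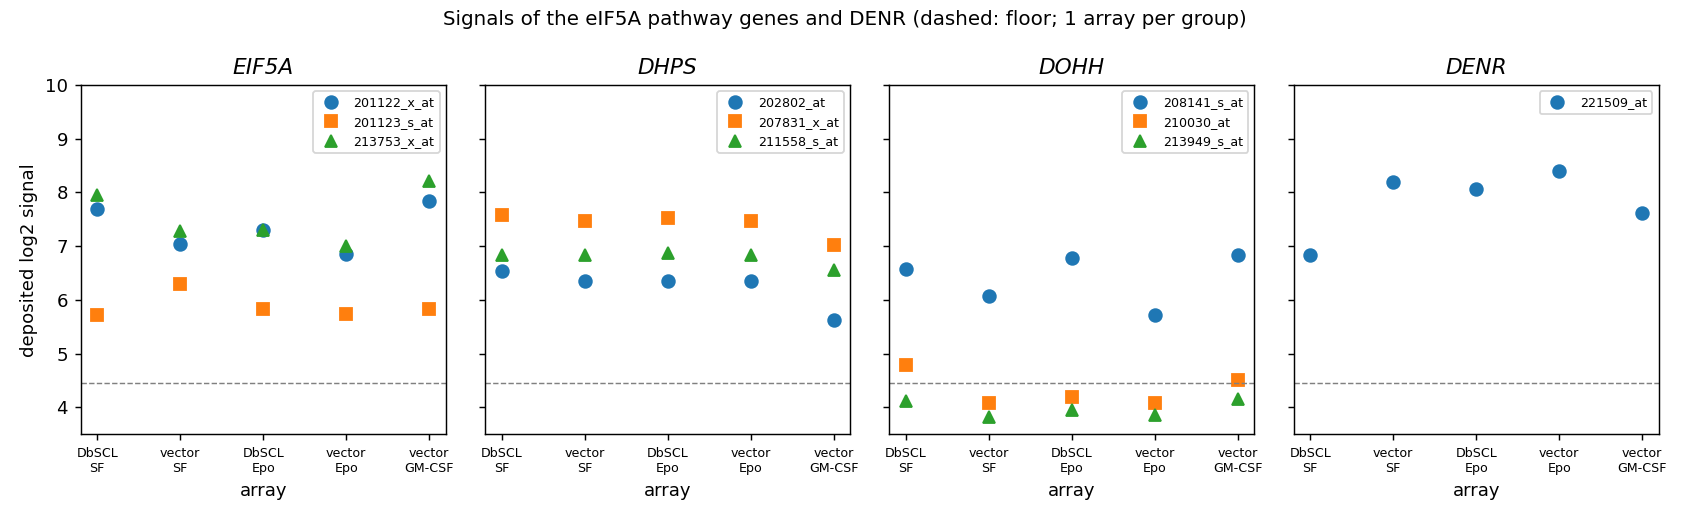
Deposited log2 signal (vertical axis) on each of the 5 arrays (horizontal axis) for every probe set of EIF5A, DHPS, DOHH and DENR; each symbol is 1 probe set and the dashed line is the floor of 4.45. The 2 brighter EIF5A probe sets and the brightest DOHH probe set are lowest on vector Epo, where they read 7.01, 6.86 and 5.71, while DENR is lowest on DbSCL SF at 6.83.

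DENR had the lowest DbSCL difference of any member. Its 1 probe set read 6.83 on DbSCL SF, 8.19 on vector SF, 8.06 on DbSCL Epo, 8.40 on vector Epo and 7.62 on vector GM-CSF. The DbSCL SF array stood apart below the other 4. DbSCL minus vector was −1.36 under SF (2.57-fold lower) and −0.34 under Epo, SF minus Epo in DbSCL cells was −1.23, Epo minus GM-CSF was 0.78 and SF minus GM-CSF 0.57, with a spread of 0.22. EIF2D, a single-chain relative of the DENR and MCTS1 pair, differed by −0.40 and −0.28 with DbSCL under SF and Epo.

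Epo was first set against GM-CSF in vector cells, where most initiation factors had higher signals under Epo. Of 81 member probe sets entered, 63 lay above 0 and 16 below, with a median of 0.36 against 0.00 over all 12200 probe sets. At 2-fold 2 were higher (background 3.42%) and 2 lower (0.172%); at 1.5-fold 24 were higher (12.8% of all) and 5 lower (2.48% of all). As a share of those entered, 29.6% of members were 1.5-fold higher and 6.17% lower. That background was not matched on signal, on which the median over all probe sets depended. It ran from −0.11 in the lowest of 10 bins to 0.31 in the bin below the highest, with 0.30 in the highest. Many of the members lay in these 2 upper bins. Quantile normalization gave 10 members 1.5-fold higher and 5 lower, 53 above 0 and 27 below, and a median of 0.16. Under cyclic loess the counts were 12 and 5, 55 and 25, and the median 0.20, and centring each array on its median gave 31 and 4, 69 and 12, and 0.43. At 2-fold the split became 4 higher and 2 lower with centring, and 2 and 3 with quantile or loess. Epo minus GM-CSF was −2.02 for 28S and −0.95 for the hybridization controls. For the 27 probe sets of the poly(A) controls, another set of array controls, it was 0.43, from 9.97 on vector Epo and 9.54 on vector GM-CSF. The part of these controls in the result was not tested.

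EIF3M, a subunit of the eIF3 scaffold, was the highest member. Its probe set 202232_s_at read 5.90 on DbSCL SF, 6.40 on vector SF, 6.05 on DbSCL Epo, 6.73 on vector Epo and 5.34 on vector GM-CSF. The vector Epo array was highest and vector GM-CSF lowest, a difference of 1.39 (2.61-fold). A brighter EIF3M probe set (202231_at) gave 0.58, from 8.32 on vector Epo and 7.74 on vector GM-CSF, and the third was below the floor. EIF5, the GTPase activator that triggers release of eIF2, was the other: its probe set 208290_s_at read 6.77, 7.10, 6.96, 7.26 and 6.18 on DbSCL SF, vector SF, DbSCL Epo, vector Epo and vector GM-CSF. That is 1.08 higher under Epo (2.12-fold), while its 4 other probe sets gave 0.00 to 0.71. Under 2 of 4 alternative treatments of the values it was short of 2-fold, with 0.96 as the lowest.

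By role, all 6 probe sets of the eIF2B subunits lay above 0, with a median of 0.69, from 0.12 for EIF2B5 to 0.90 for EIF2B3, its gamma subunit. EIF2B3 read 8.89 on vector Epo against 7.98 on vector GM-CSF. All 5 eIF2 probe sets entered were above 0 too (median 0.43), led by EIF2S2, the beta subunit, at 0.83, and EIF2S1, the alpha subunit whose phosphorylation blocks recharging, gave 0.70 and 0.05. Among 20 eIF3 probe sets 16 were above 0 (median 0.29), EIF3A being highest among the brightest probe sets at 0.79, whereas EIF3K, EIF3L, EIF3I and EIF3G lay between −0.19 and 0.08. Under quantile and loess normalization the eIF3 split was 11 above and 9 below, and that of eIF2B 5 and 1. The eIF2B median of 0.69 became 0.37 with quantile, 0.47 with loess and 0.78 with median centring. In the same order the median was 0.12, 0.15 and 0.38 for eIF3 and 0.36, 0.38 and 0.52 for eIF2. The eIF4 group was formed by name. It also holds the eIF4E-binding proteins EIF4EBP1, EIF4EBP2 and EIF4ENIF1, and EIF4A3 is its only EIF4A gene. Of 18 eIF4 probe sets 13 were above 0 (median 0.32), but with quantile normalization 10 were above and 8 below (median 0.04), and with loess 12 and 6 (0.14). EIF4E, which binds the cap, gave 0.83, 0.40 and 0.96 in its 3 probe sets, and EIF4ENIF1, which carries eIF4E into the nucleus, gave 0.90. EIF4EBP1, a repressor that sequesters eIF4E, gave −0.19. EIF4B, a helper of the eIF4A helicase, disagreed with itself at 0.79, 0.07 and −0.70. The eIF1 and eIF1A group had 11 of 12 probe sets above 0 (median 0.51), with EIF1AY, the Y-linked copy of eIF1A, at 0.75. Its median became 0.31 with quantile, 0.34 with loess and 0.60 with median centring. EIF6, which keeps the ribosomal subunits apart, gave 0.61. The 8 probe sets of EIF5A and the hypusine enzymes had a median of −0.07, with 3 above and 5 below (4 and 4 with median centring).

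**Figure D2:**
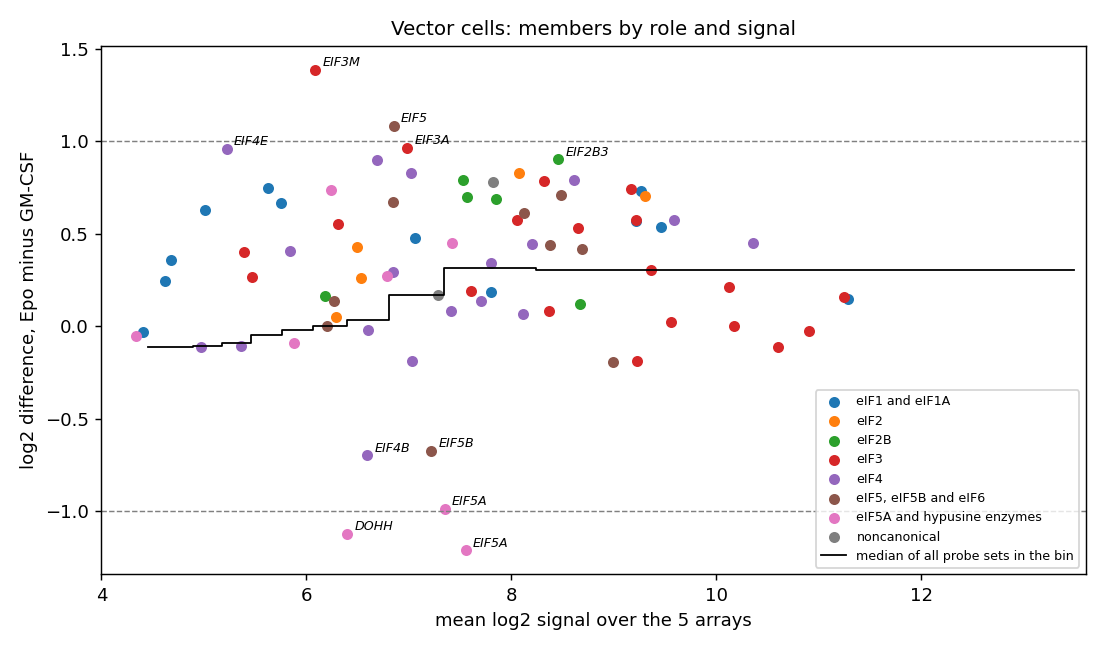
Log2 difference Epo minus GM-CSF in vector cells (vertical axis) against the mean log2 signal over the 5 arrays (horizontal axis) for member probe sets, coloured by role; the black step line is the median of all probe sets in 10 bins of signal and dashed lines mark 2-fold. EIF3M (1.39) and EIF5 (1.08) lie above the upper dashed line, DOHH (−1.12) and 1 EIF5A probe set (−1.21) below the lower one.

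SF was then set against GM-CSF, a comparison that shares the vector GM-CSF array with the one above. Of 82 member probe sets 67 lay above 0 and 10 below, with a median of 0.25 against 0.00 over all 12163. At 2-fold 1 was higher (0.617% of all) and 0 lower (0.0493% of all), and at 1.5-fold 11 were higher (7.06% of all) and 3 lower (1.34% of all). The 1 was EIF3M at 1.06, from 6.40 on vector SF and 5.34 on vector GM-CSF, with 0.51 in its brighter probe set. EIF5 (0.92), EIF3A (0.87 and 0.65), EIF4E (0.73 and 0.65), EIF2S3, the gamma subunit of eIF2 (0.73), and DHPS (0.73) were among the 11, and the 3 lower ones were DOHH and the 2 brighter EIF5A probe sets. Quantile normalization gave 7 higher and 3 lower at 1.5-fold, 1 higher and 2 lower at 2-fold, and a median of 0.11; loess gave 9 and 3, 1 and 1, and 0.16, and median centring 18 and 3 at 1.5-fold. The split above and below 0 became 50 and 31 with quantile, 55 and 26 with loess and 73 and 8 with centring, and the eIF3 median of 0.19 became −0.05 with quantile. SF minus GM-CSF was −1.28 for 28S, −0.51 for the hybridization controls and 0.07 for the poly(A) controls. For the 3′ minus 5′ signal it was −0.74 for beta-actin and −0.61 for GAPDH, vector SF being the lowest of the 5 arrays for both. The part of these controls in the result was not tested. Of 76 members above the floor on all arrays, 41 (53.9%) had signals ordered GM-CSF, SF, Epo from low to high in vector cells and 6 (7.89%) the reverse order, against 27.1% and 20.1% of all 11038 such probe sets. That background was not matched on signal, on which both differences from GM-CSF depended: the median of all probe sets ran from −0.11 to 0.30 for Epo and from −0.09 to 0.24 for SF between the lowest and the highest bin.

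Between SF and Epo in vector cells the members were close. No member was 2-fold higher under SF (0.017% of all) or lower (0.0255% of all), and at 1.5-fold 1 was higher (0.467% of all) and 0 lower (1.16% of all). Of 80 members 28 (35.0%, against 40% of all) lay above 0 and 46 below, with a median of −0.05, and with quantile normalization 39 lay above and 42 below (median −0.00). The 1 was EIF5B, the GTPase that joins the subunits, at 0.74 in probe set 201026_at. Lowest were EIF4ENIF1 at −0.48 and EIF2B3 at −0.41, and all 6 eIF2B probe sets lay below 0 (5 of 6 with quantile or loess). For the 3′ minus 5′ signal SF minus Epo in vector cells was −0.85 for beta-actin and −0.47 for GAPDH. The part of these controls in the result was not tested.

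**Figure D3:**
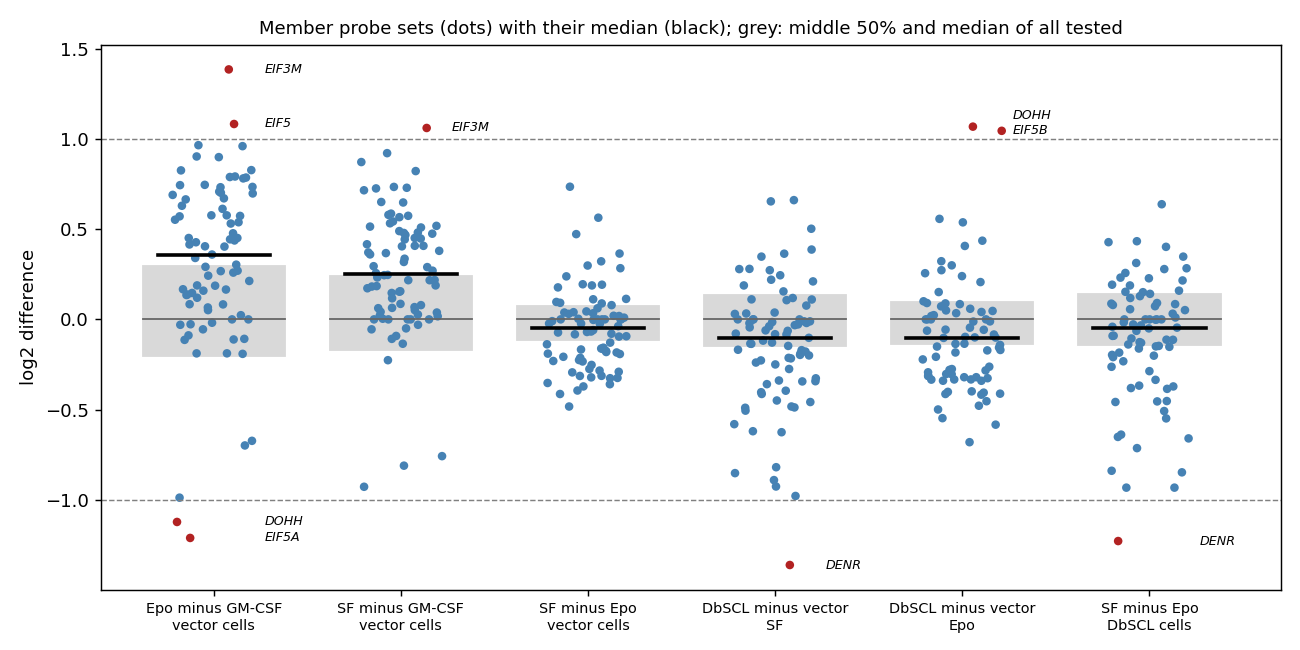
Log2 differences (vertical axis) of the member probe sets in the 6 comparisons (horizontal axis); dots are probe sets, red past the dashed 2-fold lines, black bars their medians, grey boxes and lines the middle 50% and the median of all tested probe sets. The member median is 0.36 for Epo minus GM-CSF and 0.25 for SF minus GM-CSF, and lies between −0.10 and −0.05 in the other 4.

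DbSCL was then set against the vector under each cytokine. Under SF, 55 of 81 member probe sets lay below 0 and 22 above, with a median of −0.10 against 0.00 over all 11992. Above 0 were 27.2% of members and 45.9% of all. That background was not matched on signal. The median of all probe sets was 0.04 in the lowest bin of signal, −0.06 in the bin below the highest and −0.08 in the highest. At 2-fold 0 were higher (0.025% of all) and 1 was lower (0.409% of all), namely DENR. At 1.5-fold 2 were higher (1.47% of all), both of EIF5A, and 8 were lower (3.9% of all). Besides DENR the lower ones were 2 EIF4E probe sets (−0.93 and −0.98), EIF3A (−0.89), EIF2S3 (−0.85), EIF1AY (−0.82), EIF1AX (−0.63) and EIF4G2, a relative of eIF4G that works without eIF4E (−0.62). The brightest EIF4E probe set read 6.39 on DbSCL SF, 7.32 on vector SF, 7.23 on DbSCL Epo, 7.49 on vector Epo and 6.67 on vector GM-CSF. It was lowest on DbSCL SF, as was its _s_at companion at 5.13 against 6.11 on vector SF, while the third EIF4E probe set gave −0.34. EIF2S3 read 6.08 on DbSCL SF against 6.93 on vector SF, and 6.59 on DbSCL Epo against 6.64 on vector Epo. EIF3A disagreed between probe sets, at −0.89, −0.17 and −0.14. On the DbSCL SF array the 3′ minus 5′ signal was 3.33 for beta-actin and 2.53 for GAPDH, against 1.89 and 1.58 on vector SF. On DbSCL Epo, vector Epo and vector GM-CSF it was 3.01, 2.74 and 2.63 for beta-actin and 2.44, 2.05 and 2.19 for GAPDH. Vector SF was thus the lowest array and DbSCL SF the highest for both. The hybridization controls were 0.55 higher on DbSCL SF than on vector SF. The part of these controls in the result was not tested. The split above and below 0 became 33 and 49 with quantile or loess normalization and 19 and 62 with centring. SF minus GM-CSF and this comparison share the vector SF array.

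Under Epo, 50 of 79 member probe sets lay below 0 and 25 above, with a median of −0.10 against 0.00 over all 11821. Above 0 were 31.6% of members and 41.6% of all. This background too was not matched on signal. The median of all probe sets was 0.00 in the lowest bin of signal, −0.07 in the bin below the highest and −0.11 in the highest. At 2-fold 2 were higher (0.11% of all) and 0 lower (0.271% of all), and at 1.5-fold the same 2 were higher (0.744% of all) and 1 was lower (2.75% of all). The higher ones were DOHH at 1.07, as above, and EIF5B at 1.04 (2.06-fold). EIF5B probe set 201026_at read 6.99 on DbSCL SF, 7.40 on vector SF, 7.71 on DbSCL Epo, 6.66 on vector Epo and 7.33 on vector GM-CSF, with DbSCL Epo highest and vector Epo lowest. The other EIF5B probe sets with usable signals gave −0.32, −0.14 and 0.41, so 1 of 4 passed 2-fold. The lower one was EIF3M at −0.68 (6.05 on DbSCL Epo against 6.73 on vector Epo), with −0.10 in its brighter probe set. The eIF2B probe sets lay below 0 in 5 of 6 (median −0.37) and the eIF3 probe sets in 16 of 20 (median −0.14; 11 of 20 with quantile). Over all members the split above and below 0 became 34 and 46 with quantile normalization. The 28S signal was 0.89 higher on DbSCL Epo than on vector Epo; its part in the result was not tested.

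The DbSCL differences under the 2 cytokines share no array. No member was 2-fold different in the same direction under both, and of all 11677 probe sets entered 2 were lower and 1 higher. None of the 79 members was at 1.5-fold either, where 64 of all probe sets were lower (0.548%) and 8 higher (0.0685%), so the members' count of 0 is near the background. Of 79 members 38 (48.1%) were below 0 under both, 11 (13.9%) above 0 under both and 22 (27.8%) opposite, against 25.5%, 23.3% and 28.7% of all probe sets. The rest, 10.1% of members but 22.5% of all, had a difference of exactly 0 under at least 1 cytokine, which lowers the other shares of all. The background was also not matched on signal, and in the highest bin the median of all probe sets was −0.08 under SF and −0.11 under Epo. The 2 brighter EIF5A probe sets (0.65 and 0.30, 0.66 and 0.44) and DOHH (0.50 and 1.07) were above 0 under both cytokines by more than their spread of 0.21 to 0.22. The third EIF5A probe set was not, at −0.58 under SF and 0.09 under Epo with a spread of 0.19. Passing the spread in 1 comparison was common. Only 44 of 81 members under SF and 37 of 79 under Epo lay within theirs. DENR was below 0 under both (−1.36 and −0.34). Between SF and Epo within DbSCL cells, 0 members were 2-fold higher (0.0333% of all) and 1 was lower (0.2% of all), again DENR, and at 1.5-fold 1 was higher (0.991% of all), EIF5A at 0.64, and 9 were lower (2.81% of all). The 9 included 2 probe sets each of EIF4E (−0.84 and −0.93) and EIF1AY (−0.85 and −0.93), with EIF5B at −0.71.

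**Figure D4:**
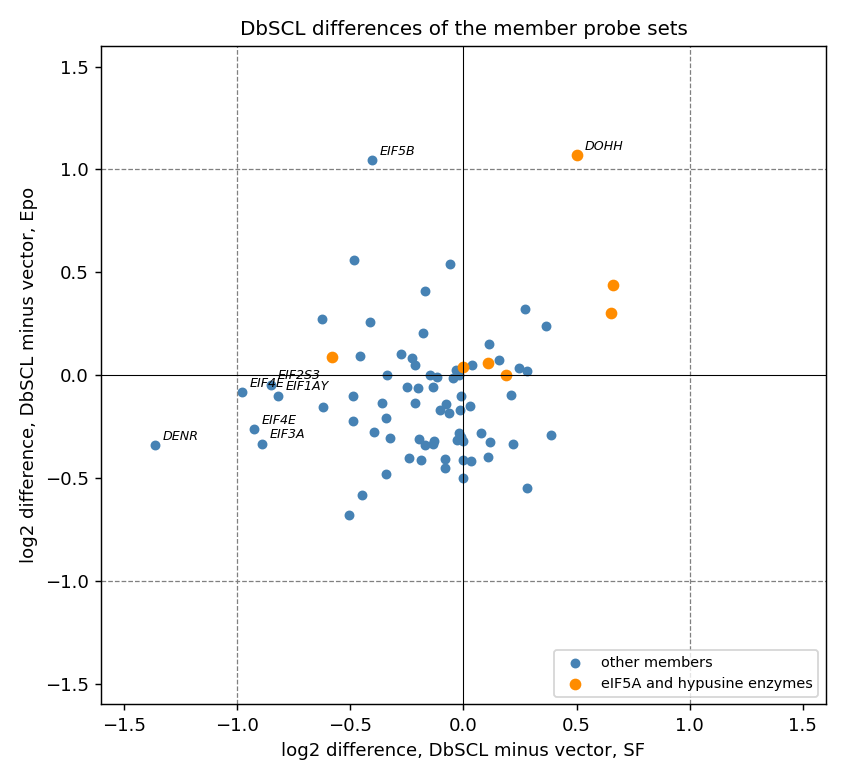
Log2 difference DbSCL minus vector under SF (horizontal axis) and under Epo (vertical axis) for each member probe set entered in both; orange points are EIF5A and the hypusine enzymes and dashed lines mark 2-fold. DENR (−1.36 and −0.34) lies at the far left and EIF5B (−0.40 and 1.04) and DOHH (0.50 and 1.07) at the top.

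**Figure D5:**
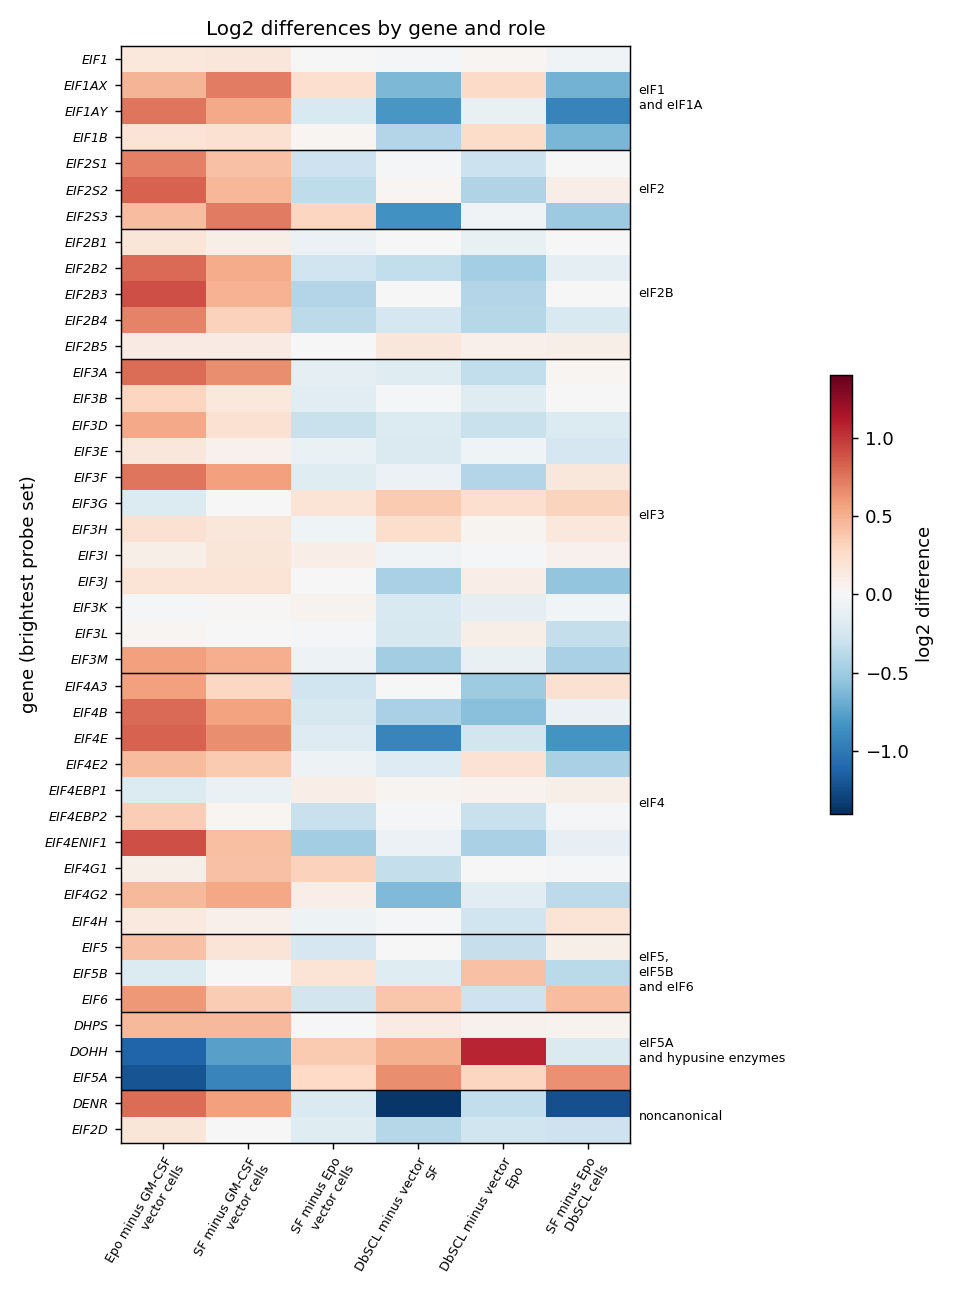
Log2 difference (colour) of the brightest probe set of each of the 42 genes with a signal above the floor (rows, grouped by role) in the 6 comparisons (columns). EIF5A and DOHH are blue in the first 2 columns, at −1.21 and −0.93 and at −1.12 and −0.76, where DHPS is red at 0.45 in both.

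Genes around the initiation factors were taken from 6 further lists. Of the initiation partners 3 of 26 probe sets had a 2-fold higher signal with Epo than with GM-CSF and 0 a lower one, beside 3.42% and 0.172% of all probe sets, the background of this comparison for each list that follows. They were 2 of the helicase gene DDX3X (1.91 and 1.01), whose other probe sets gave −0.09, 0.21 and, below the floor, no difference, and DHX29, a helicase for structured leaders (1.23). Under SF the same DHX29 probe set and 1 of DDX3X (1.36) were also past 2-fold. For SF minus GM-CSF the background was 0.617% of all probe sets higher and 0.0493% lower. Of 13 probe sets of eIF2alpha kinases and their phosphatase 1 was 2-fold higher under Epo, of EIF2AK2 or PKR (1.95, and also past 2-fold under SF), while a dimmer EIF2AK2 probe set gave −0.61. Of 23 of polyamine synthesis, which supplies the spermidine used to make hypusine, 3 were: AZIN1, the antizyme inhibitor (1.35, with 0.58 and −0.30 in its other probe sets), SMS, spermine synthase (1.18), and AMD1, which makes the aminopropyl donor (1.04). A second AMD1 probe set, at 0.93 under Epo, gave −1.10 for SF minus Epo in DbSCL cells, where 0.2% of all were 2-fold lower. Of 15 probe sets from mTOR to eIF4E and S6, 1 was higher, of RHEB, the GTPase that activates mTOR (1.18, with 0.47 and −0.34 in the others above the floor), and none of 8 for termination and recycling was (median 0.53). Among 11 of elongation factors 1 was lower, of EEF1D, a nucleotide exchanger of eEF1A, and its 3 other probe sets gave 0.43, −0.25 and −0.33. The lower one, 214395_x_at, read 8.20 on DbSCL SF, 7.63 on vector SF, 7.78 on DbSCL Epo, 6.63 on vector Epo and 8.71 on vector GM-CSF, which is −2.07 for Epo minus GM-CSF, −1.08 for SF minus GM-CSF and 1.14 for DbSCL minus vector under Epo. With DbSCL under SF no probe set of the 6 lists reached 2-fold (DHX29 gave −0.90), beside 0.025% of all higher and 0.409% lower. Under Epo that EEF1D probe set alone did, beside 0.11% of all higher and 0.271% lower. The list medians for Epo minus GM-CSF ran from 0.00 for elongation factors to 0.53, beside 0.36 for the members and 0.00 for all probe sets.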

How the data were processed

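RNA of TF-1 cells, purified on silica columns and biotin-labelled per the labels' protocols, was measured on 5 Affymetrix arrays, 1 per group. The authors deposited 1 log2 signal per probe set and array; their range (2.08 to 13.77) shows a log2 scale. Summary method, normalization and software are not given in the sources used here. A value recurs between arrays in 58.4% of deposited probe sets and in 33 of the 90 members, so some differences are exactly 0. Array medians lay between 4.89 and 4.98 and values were used as deposited. Of 22283 probe sets 68 were controls, 19065 others had 1 symbol in the platform annotation, 1043 several and 2107 none; only those with 1 symbol were used. Differences, counts (2-fold; 1.5-fold as an alternative) and the floor are described above. The spread was the scaled median absolute deviation, in 10 bins of mean signal, of the DbSCL difference under SF minus that under Epo, divided by the square root of 2. It includes any true interaction, while values that recur between arrays can make it too small. Differences from GM-CSF did not enter it, so beside those it is only a guide. The counting rule was tested on simulated data. No p-value was computed. Every member probe set of EIF5A, DOHH, DHPS and DENR, every 2-fold member, the largest of each role, and list genes at 2-fold were named; others were chosen to show agreement between probe sets or after their values were seen. Members, lists and alternatives were chosen with earlier results of these data known. Alternatives used limma 3.58.1 in R 4.3.3; other steps used Python 3.11.15 and pandas 2.3.3. The number of arrays limits the precision.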

Additional observations from a re-analysis of the deposited data

Results flagged for a closer look

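EIF5B drew attention because its probe set 201026_at moved in opposite directions with DbSCL under the 2 cytokines, −0.40 under SF and 1.04 under Epo, a difference of 1.45 on the log2 scale. The difference between the cytokines was not tested, since each group has 1 array. The other EIF5B probe sets above the floor on all arrays gave −0.36, −0.13 and −0.17 under SF and −0.14, −0.32 and 0.41 under Epo.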

How the results depend on the processing

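No paired analysis was possible because each group has 1 array, and no array could be left out for the same reason. Scaling kept most counts of 2-fold members. For Epo minus GM-CSF they were 4 as deposited, 6 with median centring and 5 with quantile or loess normalization. For SF minus GM-CSF the 1 became 3 with quantile and 2 with loess normalization, the added ones being lower under SF, and for DbSCL minus vector under SF the 1 became 2 with median centring and with loess. With the brightest probe set of each gene the count was 2 for Epo minus GM-CSF, 0 for SF minus GM-CSF and 1 for DbSCL minus vector under Epo. With the mean of each gene's probe sets these 3 were all 0. Without probe sets ending in _s_at or _x_at they were 0, 0 and 1. At 1.5-fold the counts were 29 for Epo minus GM-CSF, 14 for SF minus GM-CSF, 1 for SF minus Epo in vector cells, 10 for DbSCL minus vector under SF and 10 for SF minus Epo in DbSCL cells. Using no floor changed no count. Of the 9 differences past 2-fold in single probe sets, 8 stayed past it in all 4 alternatives (median centring, quantile, loess, no floor) and EIF5 under Epo in 2; none changed sign. DENR under SF lay between −1.41 and −1.28, DOHH under Epo against GM-CSF between −1.23 and −1.03, and EIF5A between −1.47 and −1.12. The member median for Epo minus GM-CSF ran from 0.16 to 0.43 over 7 alternatives.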

Other observations

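The EEF1D probe set 214395_x_at followed the array order of the brightest EIF5A probe set, from vector GM-CSF (8.71 and 8.22) through DbSCL SF (8.20 and 7.94), DbSCL Epo (7.78 and 7.31) and vector SF (7.63 and 7.29) to vector Epo (6.63 and 7.01). The 28S signal had the same array order, at 7.82, 7.07, 6.69, 6.55 and 5.80, and its part in either probe set was not tested. Both IDs end in _x_at. The EEF1D probe set was picked after its values were seen.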
